A study of Mus musculus with 4 samples.

Results

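The ligands of the epidermal growth factor (EGF) receptor family were followed through all arrays of the series. Areg, Ereg, Hbegf, Btc, Tgfa and Nrg4 were taken by name, as every probe whose transcript belongs to one of these 6 genes, which gave 8 probes out of 41173 on the array and 6 genes out of 18749 with a named probe. The family was chosen by its values on these same arrays, since it was proposed with earlier results of these data known, so the differences of its members are given as a description. The study asked how the transcription factor Bach2 restrains type 2 helper T cell responses. Total RNA of helper T (Th) cells was hybridized to 4 one-colour Agilent mouse arrays, 1 for each combination of WT or Bach2 KO (Bach2 flox/flox × CD4-Cre TG) with and without re-stimulation, and no condition was repeated.

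All cells came from spleens labelled as female C57BL/6J, from mice of 8 to 12 weeks by the study's methods. Naive CD4 T cells were stimulated for 2 days with immobilized anti-TCR-β (3 μg per ml) and anti-CD28 (1 μg per ml) antibodies and kept for another 3 days, under IL-2 at 2.5 ng per ml. Re-stimulated cells then received immobilized anti-TCR-β for 4 h without added IL-2. The CD4-Cre transgene deletes the floxed allele in all cells that have passed through CD4 expression, CD8 T cells and Treg cells included, and the study describes its WT control mice as CD4-Cre. The number of mice behind each RNA is not given in the sources used here.

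EGF family ligands are made as membrane-anchored precursors, which metalloproteases such as ADAM17 cut to release the soluble growth factor. Amphiregulin (Areg) and TGF-α (Tgfa) bind the EGF receptor, HB-EGF (Hbegf), betacellulin (Btc) and epiregulin (Ereg) bind it and ErbB4, and neuregulin 4 (Nrg4) binds ErbB4. Amphiregulin is made by Th2 cells, Treg cells and group 2 innate lymphoid cells. It is known for its part in tissue repair and in resistance to worms. The human form of HB-EGF is also the receptor of diphtheria toxin.

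The genes for amphiregulin, epiregulin, betacellulin and epigen (Epgn) lie side by side on mouse chromosome 5. Promoter windows, from 250 bases before to 50 bases after the RefSeq transcription start, were found for 4 of the 6 members, Areg, Btc, Tgfa and Nrg4. The windows of Areg and its neighbour Btc are shown because Areg had the largest re-stimulation difference of the members and Btc, next to it, did not stand well above background on any. Both are from GRCm38.p6, Areg on the plus strand at chr5:91139349-91139648 and Btc on the minus strand at chr5:91402945-91403244, written 5′ to 3′ in the sense of the gene, and capitals mark a match to the cyclic AMP response element TGACGTCA.
Areg: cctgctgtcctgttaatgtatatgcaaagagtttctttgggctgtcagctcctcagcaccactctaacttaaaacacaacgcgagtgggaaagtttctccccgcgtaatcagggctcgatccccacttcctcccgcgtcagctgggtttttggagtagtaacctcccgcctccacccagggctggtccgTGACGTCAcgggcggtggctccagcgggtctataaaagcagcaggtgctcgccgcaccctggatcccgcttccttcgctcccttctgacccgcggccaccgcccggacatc
Btc: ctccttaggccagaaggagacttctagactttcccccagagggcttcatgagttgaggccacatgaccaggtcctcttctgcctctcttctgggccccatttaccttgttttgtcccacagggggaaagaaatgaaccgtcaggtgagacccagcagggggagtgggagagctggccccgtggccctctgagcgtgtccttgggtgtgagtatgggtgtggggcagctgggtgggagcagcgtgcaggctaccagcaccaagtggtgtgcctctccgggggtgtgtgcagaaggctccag
The Areg window held 1 such match, at bases 190 to 197, whose first base lies 61 bases before the start. The windows of Btc, Tgfa and Nrg4 held none. The element was found in 1.79% of 32851 RefSeq promoter windows of the same length. None of the 4 windows held the AP-1 motif TGAGTCA, found in 5.2% of all windows, or the palindromic STAT6 motif with a spacer of 4 bases, found in 6.95%. All 3 motifs were searched on both strands.

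Signals are background-subtracted intensities from the scanner software. A probe was taken as measured on an array where the software marked it well above background, and the lowest signal so marked was between 14.5 and 17.2 on the 4 arrays. Areg and Hbegf had high signals after re-stimulation on both genotypes. Of the other members, Nrg4 and Tgfa were measured at signals near the background on some arrays, and Ereg and Btc on none. So 4 of the 6 members were measured on at least 1 array, and Hbegf alone was measured on all 4.

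**Figure D1:**
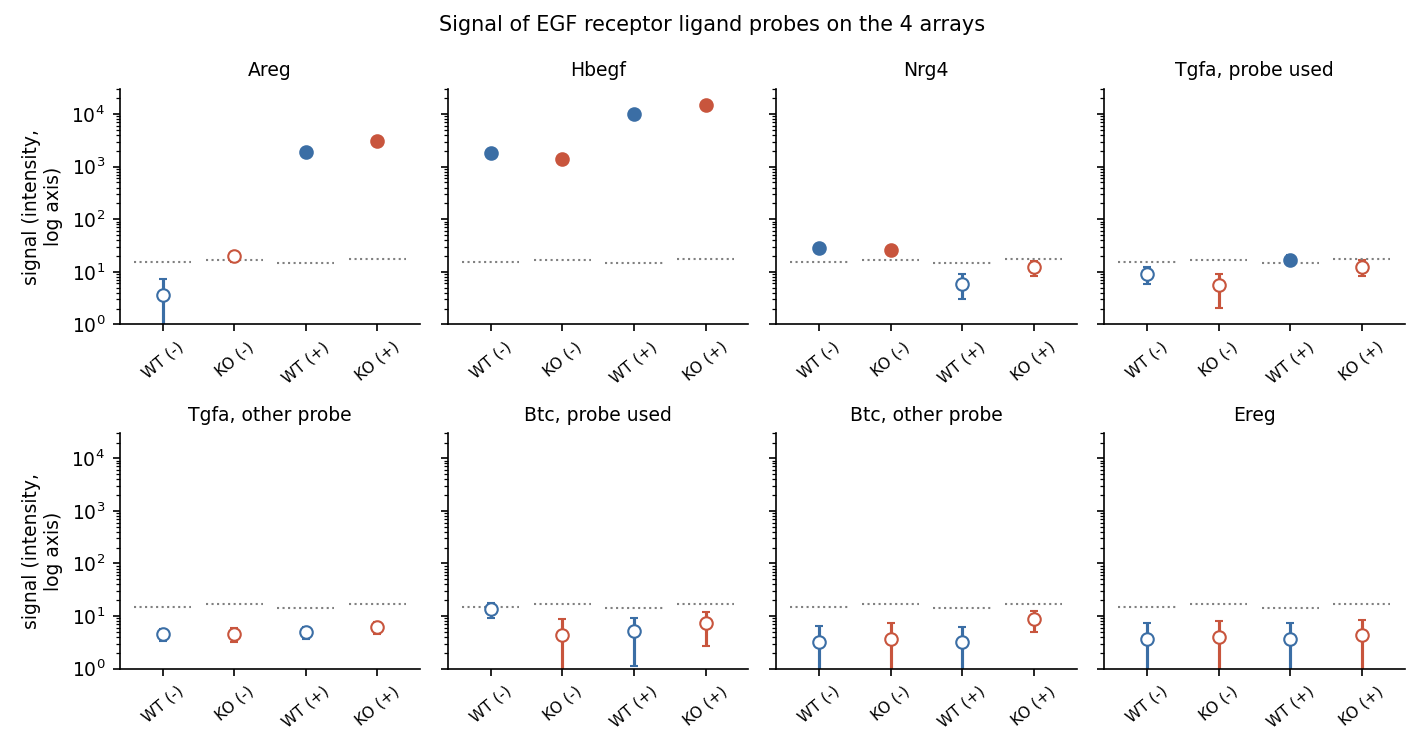
Signals of the 8 probes of the 6 ligands on the 4 arrays, on a log axis, with WT in blue, KO in red, (-) before and (+) after re-stimulation. Filled points were well above background, open points were not, bars are the scanner software's error for the signal (cut at the axis where they reach 1) and dotted lines mark the lowest well-above-background signal of each array. Areg goes from open points at 3.70 and 19.7 to filled points at 1929 and 3118, and every Ereg and Btc point is open.

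The Areg probe, printed once, read 3.70 on the WT and 19.7 on the KO array before re-stimulation, neither marked well above background. After re-stimulation it read 1929 ± 193 on the WT and 3118 ± 312 on the KO array, where the error is the scanner software's own for that spot. Both arrays of re-stimulated cells were thus far above both arrays of cells at rest, whichever the genotype. The scale used for comparison was the log2 signal minus the log2 of the array's 75th percentile. On it, Areg was at least 178-fold higher after re-stimulation in WT cells, a log2 difference of at least 7.48. In KO cells the difference was 7.61, or 195-fold. The WT value is a bound, since the dim signal was raised to the lowest well-above-background value of its array. The KO value is no bound, since its dim signal of 19.7 lay above that of its array and was used as read. The WT bound would be the 13th largest increase among 11112 genes measured on both WT arrays. The KO difference would be the 11th among 11161. These ranks leave out genes that, like Areg, were measured only after re-stimulation. Some of those had larger differences, such as Il3, at least 14.1 in both genotypes. With normexp background correction and quantile normalization, which lift dim signals, the 2 differences of Areg were 4.84 and 5.13.

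After re-stimulation the level of Areg was 6.17 times the 75th percentile on the WT and 8.84 times on the KO array. It was 1.43-fold higher on the KO array, a log2 difference of 0.52 ± 0.20 by the software's error model, under the 2-fold size used here to count a gene. Of 11284 genes measured on both arrays, 20.4% differed between the genotypes by as much in either direction. No fold between the genotypes can be given for Areg before re-stimulation, when neither array measured it. The KO signal of 19.7 lay above the lowest well-above-background signal of its array, 16.8, and was marked positive and significant by the software but not well above background.

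Hbegf, the member measured on all 4 arrays, read 1824 on the WT and 1389 on the KO array before re-stimulation. After re-stimulation it read 9897 on the WT and 14886 on the KO array. It was lower on the KO array before and higher on the KO array after re-stimulation, and both re-stimulated arrays were above both others. The re-stimulation difference was 2.92 on the log2 scale, or 7.57-fold, in WT cells and 3.72, or 13.2-fold, in KO cells. These were the 191st largest increase of 11112 and the 97th of 11161. The differences between genotypes were smaller, at -0.39 ± 0.20 before and 0.42 ± 0.20 after re-stimulation, folds of 1.31 and 1.33. Of all genes measured, 23.6% differed by at least as much before and 27.1% after.

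The response of Hbegf was 0.80 ± 0.29 larger on the log2 scale in KO than in WT cells, or 1.74-fold. Among 10810 genes measured on all 4 arrays, 7.59% had responses at least as far apart in size, and Hbegf was 340th from the top. Where a gene had several probes, their differences in response varied with a median SD of 0.10 over 3852 genes. That spread is between probes on the same arrays and holds nothing of the variation between mice or cultures.

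Nrg4 read 28.0 on the WT and 25.8 on the KO array before re-stimulation, both well above background. After it the probe read 5.98 on the WT and 12.1 on the KO array, neither well above background. Nrg4 was therefore measured only in cells at rest, where the genotypes differed by -0.11 on the log2 scale, and by 0.02 with scaling to Cd3e. Set against its level at rest, it was at least 1.38-fold lower in re-stimulated WT and at least 1.22-fold lower in re-stimulated KO cells. Both bounds are small because the starting signals were less than 2-fold above the lowest measured ones.

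Tgfa had a pair of probes. The brighter read 9.08 on the WT and 5.59 on the KO array before and 17.0 on the WT and 12.5 on the KO array after re-stimulation, and only the WT value after re-stimulation was well above background. This gave a difference of at least 0.65 for re-stimulation in WT cells and of at least 0.15 in size, lower in KO, between the genotypes after it. The other probe, printed 10 times, stayed below that mark on all 4 arrays, with means between 4.51 and 6.17. On the KO array after re-stimulation 1 of its 10 spots read 39.5 and was left out, as the software had marked it as an outlier among the 10.

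The single probe of Ereg read 3.64 and 4.01 before and 3.61 and 4.27 after re-stimulation, on the WT and the KO array in that order. The brighter probe of Btc read 13.6 and 4.39 before and 5.14 and 7.43 after, and its other probe between 3.14 and 8.88. No difference can be given for either gene, since none of these values was well above background.

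Counted by the 2-fold size, which is no test, 2 of 4 members compared were higher on the re-stimulated WT array, beside 13.2% of all genes compared, and none was lower, beside 13.5%. In KO cells 2 of 3 were higher, beside 12.4%, and none lower, beside 13%. Areg and Hbegf were the 2 genes in both. Between the genotypes, 0 of 2 members passed 2-fold before re-stimulation, beside 8.08% of all genes, and 0 of 3 after it, beside 9.02%. Hbegf was the 1 member whose responses could be set against each other, and they were less than 2-fold apart, as for all but 4.82% of genes. The comparisons share arrays, so the 4 counts are not independent. A member that was measured only on its brighter array had to differ, and the family was chosen by these values.

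**Figure D2:**
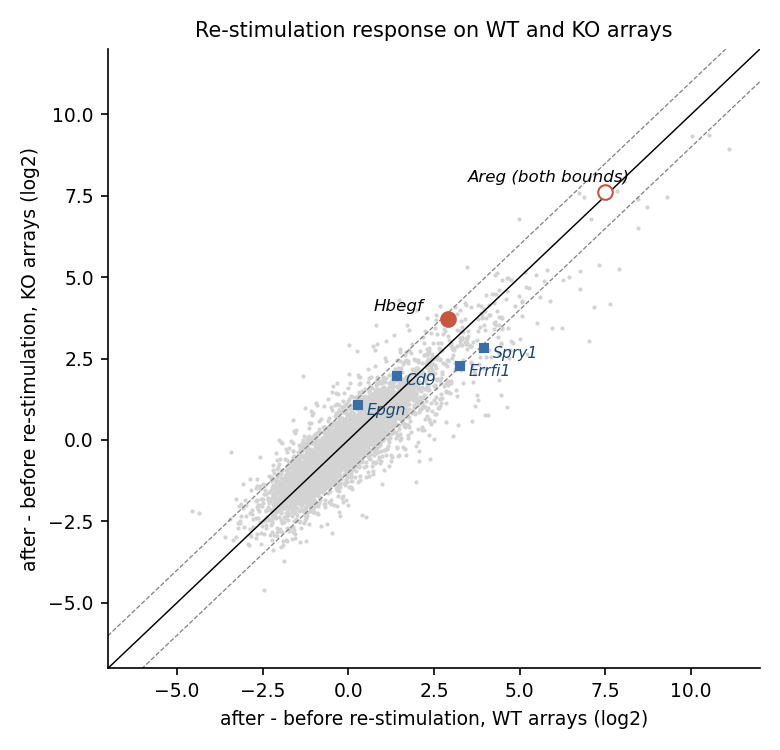
Log2 difference after minus before re-stimulation on the WT arrays (x axis) and on the KO arrays (y axis), for the 10810 genes measured on all 4 arrays (grey) and the named genes. The solid line marks equal responses and the dashed lines responses 2-fold apart. Hbegf, at 2.92 and 3.72, lies above the solid line and within the dashed ones. The open point for Areg, labelled as both bounds, is a bound on the WT axis only. On the KO axis it rests on a dim signal used as read, so its place relative to the line is not known.

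The 4 arrays lay on 1 slide and were read in 1 scan, with 53.6% to 54% of probes well above background and 75th percentiles of the signal between 313 and 436. All 10 genes of a T cell identity list, Cd3e and Cd4 among them, were measured on every array, with summed levels of 465 to 522 times the 75th percentile. The Bach2 probe read 2932 on the WT and 2633 on the KO array before and 3310 on the WT and 3080 on the KO array after re-stimulation, and so did not check the genotype labels. Whether this probe lies in the deleted part of the gene was not determined. The cells were labelled female, while the study's methods state that male and female mice were both used for in vitro experiments. Of 4 Y-linked genes, 3 were measured on both KO arrays and none on either WT array. Their summed levels on the KO arrays were 3.90 and 4.11 times the 75th percentile. Whether the KO cells came from male mice was not tested. Whatever separates these samples beside Bach2, such as sex, therefore cannot be told apart from genotype in the comparisons of KO with WT.

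Some markers of other cells that make or bind these ligands also moved with the KO label. Of 12 mast cell and basophil genes with a probe, 3 were measured on the WT and 8 on the KO array before re-stimulation, with summed levels of 0.463 and 3.46 times the 75th percentile. After it, 2 were measured on the WT and 8 on the KO array, with sums of 1.35 and 6.03. Ms4a2, the β chain of the IgE receptor, and the mast cell proteases Mcpt1, Mcpt4 and Tpsb2 were not measured on any of the 4 arrays. Of 5 receptor and effector genes of group 2 innate lymphoid cells, which Th2 cells in part share, 3 were measured on every array. Their sums were 0.333 on the WT and 3.94 on the KO array before, and 2.59 and 6.63 after. The 3 genes did not move alike. Il1rl1 read 55.3 on the WT and 1438 on the KO array before, and 629 and 2006 after re-stimulation. For Klrg1, KO minus WT was 3.54 before and 3.45 after on the log2 scale. For Rora it was 0.05 before and -0.91 after. Il17rb and Arg1 were measured on none of the arrays. Foxp3, which defines Treg cells, was measured on both WT arrays, at 50.8 before and 19.5 after re-stimulation, and on neither KO array. As bounds, KO minus WT was -1.59 before and -0.35 after. The other 4 genes of the Treg list were measured on all arrays and went in both directions. Before re-stimulation KO minus WT was -1.38 for Ctla4, 0.28 for Il2ra, 0.41 for Ikzf2 and 0.46 for Tnfrsf18. After it the values were 0.51, 0.73, -0.49 and -0.14 in this order. The part of these cells in the 1.43-fold difference of Areg after re-stimulation was not tested. In such bulk samples, more cells that express a gene and more RNA per cell cannot be told apart.

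A list of 7 type 2 cytokines was read beside Areg. On the KO array 4 of 5 compared were more than 2-fold higher before and 5 of 7 after re-stimulation and none lower, beside the 8.08% and 9.02% of all genes in either direction. Il4 read 752 on the WT and 5239 on the KO array before and 10876 on the WT and 148258 on the KO array after re-stimulation. It was higher on the KO array by 2.81 on the log2 scale before and 3.59 after re-stimulation. Il13 was higher on the KO array by 2.16, or 0.85 with normexp and quantile normalization, and by 2.59 after re-stimulation, and Il5 by at least 4.45 and by 6.86. With normexp and quantile normalization the values of Il5 were 2.35 and 4.90. The 2 genes of the list under 2-fold after re-stimulation, named after their values were seen, were Il3 at 0.16 and Csf2 at 0.72, and the 0.52 of Areg lay between them. Il2, a cytokine of freshly triggered T cells, read 37530 on the WT and 33743 on the KO array after re-stimulation, a difference of -0.33. Egr1, an early target of T cell receptor signalling, was higher after re-stimulation by 6.76 in WT and 5.17 in KO cells. Between the genotypes Egr1 differed by 1.47 before and -0.12 after re-stimulation. A list of 12 early response genes holds Il2 and Egr1. After re-stimulation 4 of the 12 were more than 2-fold lower on the KO array and 0 higher, beside 9.02% of all genes in either direction. Their median difference was -0.49. Before it 1 of 9 compared was higher and 1 lower, beside 8.08%.

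The other genes of the pathway were read from lists of 41 genes, of which 38 had a probe. They hold the other ligands, the receptors, the genes for shedding and trafficking of the ligands, and the adaptors and inhibitors of the receptors. Before re-stimulation 4 of 27 genes compared were more than 2-fold higher and 3 lower on the KO array, beside 8.08% of all genes in either direction. After it 4 of 27 were higher and 2 lower, beside 9.02%. On re-stimulation 8 of 28 were higher and 2 lower in WT cells, beside 13.2% and 13.5% of all genes. In KO cells 10 of 28 were higher and 1 lower, beside 12.4% and 13%. The lists' median log2 differences were 0.19, 0.27, 0.33 and 0.44 in these 4 comparisons, against medians over all genes between -0.01 and 0.02. These medians include bounds. The lists were drawn up with earlier results of these data known, so their counts and medians are a description.

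**Figure D3:**
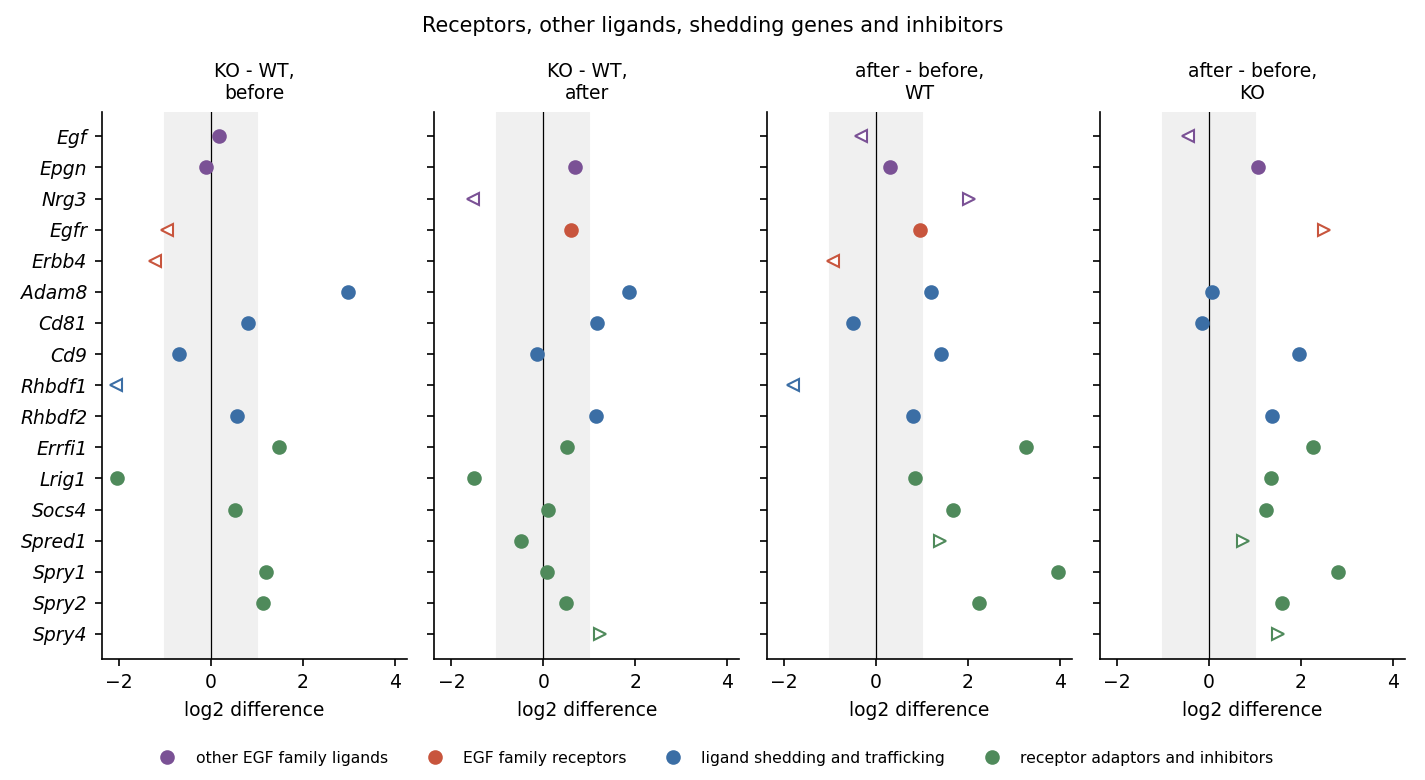
Log2 differences in the 4 comparisons for the pathway genes named by rule that could be compared. Filled circles were measured on both arrays, open triangles are bounds pointing away from 0, colours give the list, and the grey band marks differences under 2-fold. Adam8 lies right of the band in both genotype comparisons and Lrig1 left of it, and Errfi1, Spry1 and Spry2 lie right of it in both re-stimulation comparisons.

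Of the receptors, Egfr alone was measured by more than 1 probe. Its brightest probe read 32.5 on the WT array and 14.8, not well above background, on the KO array before re-stimulation. After it the probe read 45.1 on the WT and 77.6 on the KO array. These signals are weak, and the array with the highest was that of re-stimulated KO cells. The log2 difference on re-stimulation was 0.95 in WT and at least 2.51 in KO cells, and after re-stimulation KO was higher by 0.61. Of the other Egfr probes, 2 gave 0.70 and 0.79 for that last comparison and at least 1.91 and 1.83 for the response of KO cells, while the fourth was measured on none of the arrays. With normexp and quantile normalization the response of KO cells was 0.83, under 2-fold. Probes printed at least 10 times with a signal under 50 varied between their spots with a median SD of 0.18 to 0.20 on the log2 scale. Myeloid markers, of which 2 of 11 were measured on the WT and 3 on the KO array after re-stimulation, summed to 0.229 and 0.837 times the 75th percentile. Their part, and that of the mast cell and basophil genes above, in the Egfr signal was not tested.

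Erbb2, the co-receptor without a ligand of its own, and Erbb3, which has little kinase activity, were not measured on any of the arrays, over 2 and 4 probes. Erbb4, the receptor of Nrg4, read 39.0 with 1 of its 3 probes on the WT array before re-stimulation and was not well above background elsewhere, nor with the other probes on any array. For Nrg4 and Erbb4 the signals above background were therefore both in cells at rest.

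Among the other ligands, epigen read 46.4 on the WT and 43.2 on the KO array before and 40.8 on the WT and 74.2 on the KO array after re-stimulation. Its log2 difference on re-stimulation was 0.29 in WT cells, which turned to -0.0032 with scaling to the median, and 1.08 in KO cells, which was 0.50 with normexp and quantile normalization. Egf itself was measured only before re-stimulation, at 25.6 on the WT and 28.9 on the KO array. Nrg3, a ligand of ErbB4, was measured on 1 array, at 44.1 in re-stimulated WT cells, and its other probe on none.

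The gene for Adam8, a membrane metalloprotease of leukocytes, had the largest genotype difference of the lists among genes measured on both arrays. It read 6116 on the WT and 48112 on the KO array before and 9997 on the WT and 40981 on the KO array after re-stimulation, log2 differences between genotypes of 2.98 and 1.86. Both KO arrays were above both WT arrays. Rhbdf2, which encodes iRhom2, the partner that carries ADAM17 to the cell surface, was higher on the KO array by 0.58 before and 1.15 after re-stimulation, and its second probe gave 0.57 and 1.14. Cd81, a tetraspanin, was higher by 0.81 and 1.16. Cd9, a tetraspanin that associates with the HB-EGF precursor, was higher after re-stimulation by 1.42 in WT and 1.97 in KO cells. Rhbdf1, a relative of Rhbdf2, was measured on 1 array, at 70.7 in WT cells before re-stimulation, and its bound there, at least 2.07 lower in KO, has no order against Adam8.

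Feedback inhibitors of EGF receptor and Ras signalling were among the genes higher after re-stimulation. Errfi1, whose product binds the EGF receptor kinase and blocks it, read 318 on the WT and 884 on the KO array before and 2172 on the WT and 3482 on the KO array after re-stimulation. Spry1, a Sprouty inhibitor of Ras signalling, read 966 on the WT and 2226 on the KO array before and 10791 on the WT and 12770 on the KO array after it. Both genes were higher on the KO array before re-stimulation, by 1.48 and 1.21 on the log2 scale, and less than 2-fold apart after it, at 0.51 and 0.07. Their re-stimulation differences were 3.25 and 3.96 in WT cells and 2.28 and 2.82 in KO cells. The response of Errfi1 was thus 0.97 smaller and that of Spry1 1.14 smaller in KO than in WT cells, where that of Hbegf was 0.80 larger. Spry1 is known to be induced by T cell receptor signalling as well.

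The brighter Spry2 probe gave 2.23 in WT and 1.59 in KO cells on re-stimulation, but a second measured probe gave 0.23 and 0.47, so the value for this gene is uncertain. Socs4, an adaptor that lowers EGF receptor levels, was higher on re-stimulation by 1.67 and 1.24, with 1.51 and 1.05 from its second probe. Spred1, another Ras inhibitor, was higher by at least 1.38 in WT and at least 0.74 in KO cells. Spry4 was measured on 1 array, at 38.5 in re-stimulated KO cells, and its other probe on none. Lrig1, which promotes the breakdown of EGF family receptors, read 467 on the WT and 114 on the KO array before and 599 on the WT and 238 on the KO array after re-stimulation. It was lower on the KO array by 2.03 on the log2 scale before and 2.83-fold after re-stimulation, and higher on re-stimulation by 0.84 in WT and 1.36 in KO cells. With normexp and quantile normalization the responses of Spry2 were 0.83 in WT and 0.76 in KO cells and those of Socs4 0.97 and 0.72, those of Spred1 0.45 and 0.13, and the response of Lrig1 in KO cells was 0.90, all under 2-fold.

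Along the chromosome, RefSeq places Epgn, Ereg, Areg and Btc in this order, between Mthfd2l on one side and Parm1 on the other. Of the 10 annotated genes nearest to Ereg, Areg and Btc, 5 on each side, 8 had a probe and 5 of these were measured on at least 1 array. Parm1, beyond Btc, read 845 on the WT and 51.1 on the KO array before and 259 on the WT and 27.0 on the KO array after re-stimulation, and was lower on the KO array by 4.04 and 3.43, differences of -2.75 and -1.999 with normexp and quantile normalization. The chemokine gene Cxcl2 was measured only after re-stimulation, at 15.7 on the WT and 57.7 on the KO array. Rchy1 differed by at most 0.03 in size in the 4 comparisons with its brighter probe and by -0.22 to -0.11 with the other. On re-stimulation 1 of the 5, Parm1 at -1.23, was more than 2-fold lower in WT cells, beside 13.5% of all genes, and 2 of the 5, Cxcl2 and Epgn, were higher in KO cells, beside 12.4%. The value of Parm1 was -0.93 with scaling to Cd3e, and the bound of Cxcl2 in KO cells, 2.08, was 0.86 with normexp and quantile normalization.

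The genes most like Areg over the 4 arrays were sought among the 234 genes measured on the same 2 arrays whose values spanned at least 1 on the log2 scale, by the Euclidean distance of log2 values centred on each gene's own mean. Nearest was Myh7, a myosin heavy chain gene, at a distance of 0.48, with signals of 3.76 and 4.11 before and 1664 and 1973 after re-stimulation on the WT and the KO array. Next came Olr1, a scavenger receptor for oxidized lipoprotein, at 1.27, Wnt3, a Wnt ligand, at 1.34, Egr4, an early growth response factor, at 1.51 and Cd83, a surface protein of activated lymphocytes, at 1.57. Of these 5 genes, Olr1 had a larger genotype difference after re-stimulation than Areg in the same direction, 1.22, while Wnt3, Egr4 and Cd83 were lower on the KO array by 0.90, 0.35 and 1.42. For cells at rest the distances rest on values not well above background, that of Areg on the WT array being raised to the lowest measured value and its 19.7 on the KO array used as read.

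For Hbegf, among the 4121 genes that were measured on all arrays and met the same minimum span, the nearest was Gpr65, a proton-sensing receptor of lymphocytes, at 0.25. Cavin1, a caveolar coat protein, followed at 0.27, Stat5a, a transcription factor of IL-2 signalling, at 0.31, Sema7a, a membrane semaphorin, at 0.31 and Cnih2 at 0.37. Sema7a read 4316 on the WT and 2607 on the KO array before and 18087 on the WT and 27350 on the KO array after re-stimulation, and like Hbegf it was lower on the KO array before, by 0.72, and higher after, by 0.42. For Nrg4, whose values spanned 0.47 over the arrays, the nearest of 94 genes, Pth1r, lay 0.52 away, farther than that span, so no gene is described as like it.

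**Figure D4:**
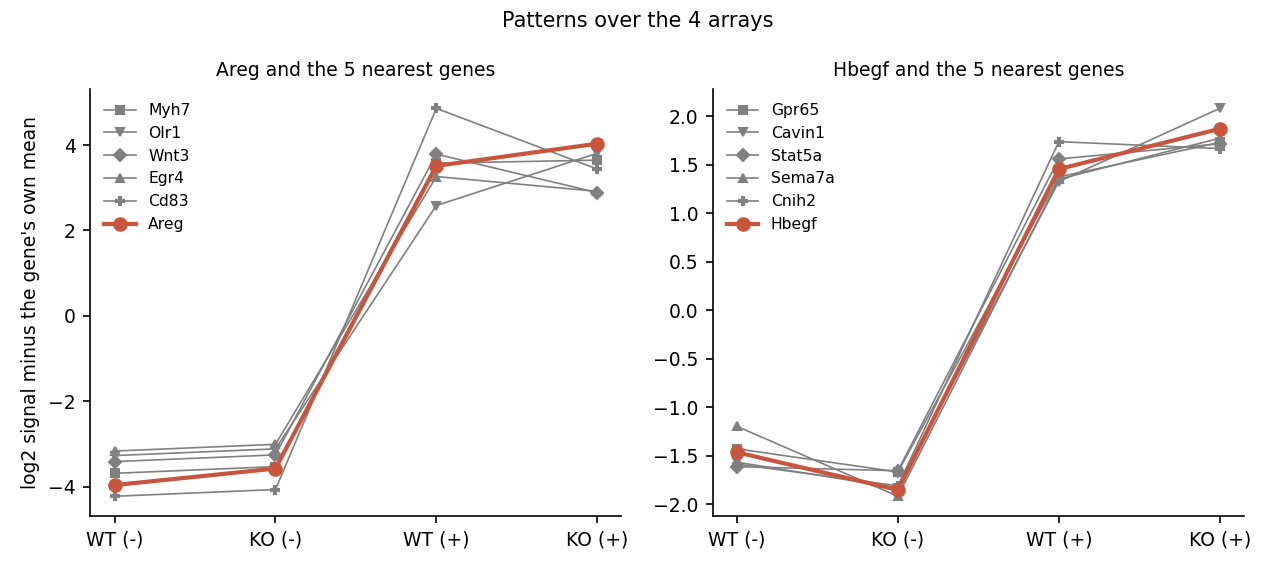
Scaled log2 signals minus each gene's own mean over the 4 arrays, for Areg and its 5 nearest genes (left) and Hbegf and its 5 nearest genes (right), with the ligands in red. Values below the lowest well-above-background value of an array were raised to it. All lines rise from the arrays before to those after re-stimulation, and the genes near Areg part on the KO array after re-stimulation, from -1.42 for Cd83 to 1.22 for Olr1 relative to WT.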

How the data were processed

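RNA of 4 samples was read on 4 one-colour arrays. The intensities deposited by the authors, 1 for each spot, had been background-subtracted and detrended in Feature Extraction 10.7.3.1 and carry its flags. The authors' deposited log2 table holds the same intensities, scaled: within 0.01 for 99.6% of probes on every array, a value was the log2 of the intensity less that of the 75th percentile. Between 107 and 120 flagged spots per array were left out, spots of a probe were averaged as log2, and the array's 75th percentile over 41173 probes was subtracted. Probes were named by transcript from the RefSeq gene table of GRCm38.p6 (66.7% named). Its coordinates were not used to place probes, because the array was designed on mm9. Coordinates of GRCm38.p6 served for the promoter windows and the order of genes along chromosome 5. Genes with several probes were read from the brightest.

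A gene was compared where well above background on at least 1 of 2 arrays. The dim value was raised to that array's lowest measured value where it lay below it. With 1 array per condition no test was made and genes were counted past 2-fold, a rule of size. Errors come from the scanner software's error for each spot and hold nothing of the variation between mice or cultures. The members, the gene lists and the naming rule were chosen with earlier results of these data known. Named were all members, the receptors, Egf and Epgn, pathway genes past 2-fold (at most 8 per comparison), the 5 genes nearest in pattern and Il4, Il5, Il13, Il2, Egr1, Bach2 and Cd3e. Neighbours of Areg on the chromosome were taken by their order in the annotation. Adam15 and Adam17 were named beside these, outside the naming rule. Python 3.11.15, pandas 2.3.3, R 4.3.3 and limma 3.58.1 were used, and the scripts were tested on simulated data. The study's ChIP-seq data were not used here.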

Additional observations from a re-analysis of the deposited data

Results flagged for a closer look

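Hbegf differed between the genotypes in opposite directions in the 2 states. Its log2 difference, KO minus WT, was -0.39 before and 0.42 after re-stimulation. With 1 array per condition this change of direction was not tested. Of 10810 genes measured on all 4 arrays, 1344 (12.4%) changed direction in this way beyond the spread between probes of a gene, 745 of them lower before and higher after re-stimulation like Hbegf. The median SD between probes was 0.09 before and 0.11 after re-stimulation, below the differences of Hbegf. The share therefore does not say how many genes changed direction by as much.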

How the results depend on the processing

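No paired analysis was possible because each condition was read on 1 array. Under 10 alternatives the 111 recomputed log2 differences of members kept their direction but for Nrg4 before re-stimulation, which was 0.023 with scaling to Cd3e, and 31 of them moved by more than the spread between probes. Areg after re-stimulation stayed between 0.41 and 0.62 higher on the KO array, and its response between 4.84 and 9.51 in WT and between 5.13 and 7.86 in KO cells. For Hbegf the genotype difference ran from -0.45 to -0.25 before and from 0.35 to 0.51 after re-stimulation, and the difference of responses from 0.68 to 0.83. Of other named genes with a difference beyond the spread between probes, scaling to Cd3e turned Epgn between genotypes before re-stimulation to 0.043 and Cdkl2, a neighbour of Areg, in the response of KO cells to 0.11, and scaling to the median turned the response of Epgn in WT cells to -0.0032. Differences within that spread also changed sign, for the response of Adam8 in KO cells (-0.20 to 0.32), that of Cd81 (-0.40 to 0.12), Spry1 and Cnih2 between genotypes after and Stat5a before re-stimulation, and Rchy1 in all 4 comparisons.

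With only genes measured on both arrays, 1 member passed 2-fold in each response, since Areg was left out. With no filter and no floor, 2 members passed 2-fold between genotypes before re-stimulation (Areg at 2.42 and Btc at -1.63), 4 passed in each response and the responses of 2 were 2-fold apart, all but Hbegf resting on values not well above background. Of the pathway genes, normexp left 4 past 2-fold between genotypes before re-stimulation, 5 in the response of WT and 5 in that of KO cells, no filter gave 11 between genotypes before and 10 after it, and a 3-fold rule 3 and 1 between genotypes and 6 and 5 in the responses. Scaling to the median shifted all genes by -0.30 in the response of WT and -0.26 in that of KO cells, and scaling to Cd3e by 0.27 and 0.25 and by 0.14 between genotypes before re-stimulation. With no filter the median of all genes shifted by 0.34 and 0.30 in the responses. No difference in this series can be set against variation between mice or cultures, and signals near 15 limit what can be said of Ereg, Btc, Tgfa and Nrg4.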
